A study of Mus musculus and Homo sapiens with 15 samples.

Results

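Interferon response genes are the genes that cells switch on when an interferon binds its receptor. A list of 36 of them was followed by RNA sequencing through tumours treated with arsenic trioxide (ATO), an arsenical drug. The members were taken by gene symbol, and each symbol matched exactly 1 row: 36 of 52340 genes in the table of W/W thymus tumours, 36 of 56691 in the table of grafted tumours, and, for the members with a human counterpart (Oas1a read as OAS1, mouse-only genes left out), 32 of 61806 in the table of U937 cells. The rule uses names and no measured value.

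Of 15 libraries, 9 came from the thymus of W/W mice, which carry p53 R282W on both alleles and had T-lymphomas on day 150 after birth. Of these mice, 3 received water, 3 received ATO and had tumours in progression, and 3 received ATO and had tumours in regression. All 9 carry the mutation, so no W/W comparison has a group with normal p53, and because the outcome of treatment defines the ATO groups, treatment and outcome cannot be told apart against water. A further 4 libraries came from tumours of a CDX (grafted cell) model in C57 mice labelled WT, of which 2 received phosphate-buffered saline (PBS) and 2 received ATO. The labels do not name the grafted cells, and WT may refer to the host. The last 2 libraries came from U937, an established human myeloid leukaemia line, expressing p53 R282W and given PBS or ATO, with 1 library each. Doses and times of ATO are not in the labels. The labels do not say outright that libraries of a group come from separate animals, so p-values measure the spread between these libraries.

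Interferons fall into type I (interferon alpha and beta), type II (interferon gamma) and type III (interferon lambda). Type I and III receptors signal through JAK1 and TYK2 to a complex with STAT2 and IRF9, which binds the interferon-stimulated response element (ISRE) in gene promoters, while interferon gamma signals through JAK1 and JAK2 and acts at the gamma-activated site (GAS). The induced genes encode sensors and destroyers of foreign RNA, membrane and nucleotide effectors, GTPases that attack intracellular vacuoles, and brakes that close the response. In the thymus, medullary epithelial cells are known to make type I interferon at rest, so that many of these genes are active there without infection.

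Promoters of 7 members are shown, because they carry the binding sequences that define the response, in members that fell in progressing tumours and in members that did not; they were chosen after the values were seen. They come from RefSeq for mouse build GRCm38.p6, read on the strand of the gene and ending just before its start. Capitals mark matches to the ISRE core, searched as GAAA, any 2 bases and GAAA again on either strand (TTTC, any 2 bases and TTTC when read on the other strand), and to the GAS core, searched as TTCNNNGAA, which reads the same on both strands; neighbouring ISRE matches may overlap. The first 4 belong to genes that fell in progressing tumours, and the last 3 to genes that did not pass the test there.
Isg15 (chr4:156200819-156200978, minus strand): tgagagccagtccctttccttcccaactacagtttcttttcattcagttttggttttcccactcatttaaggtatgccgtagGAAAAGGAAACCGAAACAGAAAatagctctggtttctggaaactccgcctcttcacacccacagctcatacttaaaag
Ifit1 (chr19:34640729-34640870, plus strand): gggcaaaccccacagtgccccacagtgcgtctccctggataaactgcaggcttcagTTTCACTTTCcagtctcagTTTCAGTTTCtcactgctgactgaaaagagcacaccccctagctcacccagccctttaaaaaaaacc
Ifit3 (chr19:34583369-34583528, plus strand): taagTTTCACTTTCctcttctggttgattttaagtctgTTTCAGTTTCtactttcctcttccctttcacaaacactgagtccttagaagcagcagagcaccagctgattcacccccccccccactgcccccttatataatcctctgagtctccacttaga
Oas1a (chr5:120907526-120907685, minus strand): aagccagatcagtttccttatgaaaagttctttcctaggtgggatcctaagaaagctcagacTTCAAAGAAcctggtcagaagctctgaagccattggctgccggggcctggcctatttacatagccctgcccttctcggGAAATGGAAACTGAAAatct
Igtp (chr11:58199396-58199555, plus strand): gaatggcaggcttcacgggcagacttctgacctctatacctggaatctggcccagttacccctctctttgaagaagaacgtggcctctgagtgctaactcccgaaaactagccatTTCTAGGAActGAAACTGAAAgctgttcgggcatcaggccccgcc
Socs1 (chr16:10785537-10785696, minus strand): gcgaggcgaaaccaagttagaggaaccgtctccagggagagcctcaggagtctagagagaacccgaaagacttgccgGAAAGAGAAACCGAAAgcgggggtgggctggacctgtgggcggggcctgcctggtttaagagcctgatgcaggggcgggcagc
Irf1 (chr11:53769854-53770013, plus strand): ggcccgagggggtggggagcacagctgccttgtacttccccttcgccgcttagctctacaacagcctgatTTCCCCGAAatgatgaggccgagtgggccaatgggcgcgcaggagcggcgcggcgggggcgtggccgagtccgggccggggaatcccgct
Isg15 has 3 overlapping ISRE matches in 1 block, Socs1 has 2 in 1 block, and Ifit1 and Ifit3 each have 2 that lie apart. Oas1a and Igtp carry both kinds of element, and Irf1 carries a GAS match and no ISRE match in this stretch. A promoter window of 300 bases, 250 before to 50 after the start, was at hand for 28 of the 36 members. At least 1 ISRE match lay in 16 of the 28 (57.1%), against 3.99% of all 27025 genes with a window. A GAS match lay in 8 (28.6%), against 9.55% of all genes, and 9 members had neither in these windows. Of the 15 with a window that fell in progressing tumours, 7 (46.7%) had an ISRE match and 2 (13.3%) a GAS match, and of the 13 that did not pass, 9 (69.2%) and 6 (46.2%) did. These shares were not tested. A match is a description of the letters and no evidence of binding.

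Total counts ranged from 12800367 to 17550594 in the W/W libraries, from 12922147 to 15637644 in the grafts and from 16454534 to 17872972 in U937. Levels are in counts-per-million units (CPM), the counts of a gene as its share of the library, with library sizes adjusted by the TMM method in the mouse tables. Water 2 and progressing 2 stood apart with the lowest TMM factors of the W/W libraries (0.747 and 0.794), and results were repeated without both. T-cell markers were present throughout the W/W libraries and grafts. They summed to 1306 to 2020.4 CPM in water, 2173 to 3705 CPM in progressing and 2991 to 4896 CPM in regressing tumours. In the grafts they summed to 6019 to 7335 CPM after PBS and 3662 to 4742 CPM after ATO. Markers of double-positive thymocytes, the main cell of a healthy thymus, summed to only 210.4 to 532 CPM in water tumours and to 2186 to 3199 CPM and 4565 to 9377 CPM in progressing and regressing ones. The U937 libraries held counts of all 8 myeloid markers, with MPO lowest at 7 and 14, and T-cell markers summed to only 0.560 and 2.49 CPM, most of the latter from CD247 (31 counts), with CD3D, CD3G, LCK and THY1 at 0 in both. In bulk tissue, fewer cells of a type and less RNA per cell cannot be told apart.

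Every member had counts in every W/W library. Their median level was 48.0, 27.4 and 62.3 CPM in the water libraries, 15.004, 11.4 and 8.21 CPM in the progressing libraries and 40.3, 24.1 and 46.7 CPM in the regressing libraries. The 3 progressing libraries thus lay below all 6 others. Progressing 3 held the lowest level of the 9 libraries for 21 of 36 members, and water 3 the highest for 16. Relative to gene length, the most abundant member in water tumours was Bst2, which encodes tetherin, with a mean of 119 CPM per kilobase of exon. Ifi35 (47.9), Igtp (42.7) and Isg15 (41.6 CPM per kilobase) followed, and Mx2 was lowest at 2.01. In progressing tumours Bst2 still led with 67.8 CPM per kilobase and Irf1 came next with 49.2, while Ifi44 stood lowest at 0.208. The Irf1 mean rested mainly on progressing 2, at 399 CPM. Libraries of a group scattered widely: the median coefficient of variation over members was 45.1% in water, 53.3% in progressing and 35.6% in regressing tumours.

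**Figure D1:**
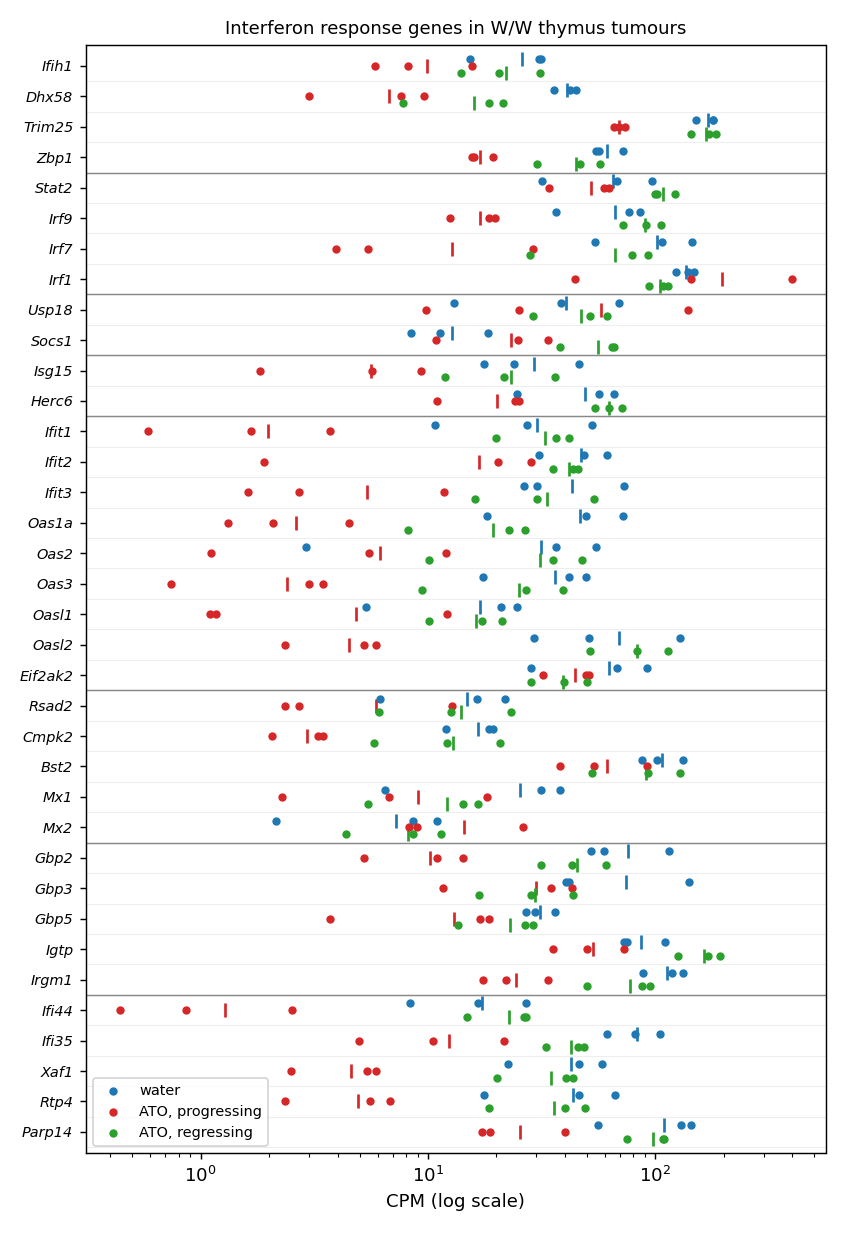
Level of each of the 36 members in the 9 W/W libraries, in CPM on a log axis; dots are libraries, short bars are group means, and horizontal lines divide the roles. The progressing libraries lie left of the water libraries for most members, with no overlap in 21, while Irf1, Usp18, Socs1 and Mx2 have progressing means to the right of water.

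The first question was how tumours that progressed under ATO differed from water-treated tumours. Interferon response genes were lower in progressing tumours: 19 of 36 members fell and none rose at an adjusted p-value under 0.05 (edgeR quasi-likelihood test, adjusted over all 18119 genes tested). Over all genes, 11.9% passed, 7.13% as lower and 4.77% as higher. The members' median log2 fold change was -1.91, against -0.04 over all genes, and 32 of 36 had a negative value. The falls ran from -1.30 for Trim25 to -4.16 for Oas1a, which is 17.8-fold. In 21 members every progressing library lay below every water library, and in none did every progressing library lie above, where 14.7% and 11.9% of all genes did so.

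Among the sensors of foreign nucleic acid, 3 of 4 fell. Zbp1, a sensor of Z-form RNA and DNA that can start necroptosis, stood at 56.5, 54.6 and 72.4 CPM in water and 15.7, 19.4 and 15.97 CPM in progressing tumours (log2 fold change -1.85 with an SE of 0.33, adjusted p = 0.00821). The groups were far apart and the progressing libraries close together. Dhx58, which encodes LGP2, the regulator among the RIG-I-like receptors, stood at 42.2, 35.996 and 44.6 CPM in water and 7.62, 9.62 and 3.004 CPM in progressing tumours, and fell by 2.60 on the log2 scale. Trim25, a ubiquitin ligase of RIG-I signalling, fell by 1.30, with 65.6, 69.0 and 73.4 CPM in progressing against 179.6, 151 and 179.8 CPM in water tumours. Ifih1, which encodes the long-RNA sensor MDA5, had 30.8, 15.3 and 31.5 CPM in water and 15.7, 5.82 and 8.13 CPM in progressing tumours (log2 fold change -1.39 with an SE of 0.51, adjusted p = 0.1005). Its highest progressing library lay above its lowest water library, and it did not pass.

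The transcription factors split. Irf7, the master amplifier of type I interferon production, stood at 107, 54.3 and 144 CPM in water and 5.47, 28.9 and 3.96 CPM in progressing tumours (log2 fold change -2.997 with an SE of 0.77, adjusted p = 0.0325), with progressing 2 well above both others of its group and still below every water library. Irf9, the DNA-binding partner of STAT2, fell by 1.98 (SE 0.38, adjusted p = 0.0106), from 86.0, 36.8 and 76.9 CPM to 18.5, 19.7 and 12.5 CPM. Stat2, its partner, was not among those that fell: it had 96.6, 31.8 and 67.6 CPM in water and 62.8, 59.7 and 34.1 CPM in progressing tumours (log2 fold change -0.32 with an SE of 0.40, adjusted p = 0.645), and the groups overlapped. Irf1, a factor known for its response to interferon gamma, had 148, 124 and 139 CPM in water and 44.5, 399 and 144 CPM in progressing tumours (log2 fold change 0.51 with an SE of 0.58, adjusted p = 0.609). Water libraries agreed closely for Irf1, whereas progressing 2 was the highest and progressing 1 the lowest of all 9 libraries; without progressing 2 the log2 fold change was -0.48. Counts of Irf9 may include reads of Rnf31, which overlaps it on the same strand, and Irf7 and Irf1 overlap Phrf1 and Gm17334 on the opposite strand; use of strand in counting is not given in the sources used here.

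Neither feedback brake passed, and both had positive values. Usp18, the protease that removes ISG15 and blocks the type I receptor, had 38.4, 13.04 and 69.5 CPM in water and 139, 25.1 and 9.82 CPM in progressing tumours (log2 fold change 0.52 with an SE of 0.84, adjusted p = 0.735). Its positive value rested on progressing 1, the highest of all 9 libraries, and the log2 fold change was -1.21 without it. Socs1, which inhibits JAK kinases, had 11.3, 8.39 and 18.4 CPM in water and 33.7, 10.8 and 24.8 CPM in progressing tumours (log2 fold change 0.86 with an SE of 0.47, adjusted p = 0.260); the groups overlapped and it did not pass.

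Of the ubiquitin-like system, Isg15, the ubiquitin-like modifier itself, stood at 23.8, 17.7 and 46.2 CPM in water and 5.66, 9.28 and 1.83 CPM in progressing tumours (log2 fold change -2.39 with an SE of 0.66, adjusted p = 0.0403). No progressing library reached the lowest water library. Herc6, the mouse ligase that attaches ISG15, had 56.4, 24.6 and 66.1 CPM in water and 25.1, 10.97 and 24.3 CPM in progressing tumours and did not pass (adjusted p = 0.0804).

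The effectors that bind or destroy RNA held the 4 deepest falls, with 5 of 9 passing and all 9 values negative. Ifit1, which binds RNA lacking a self-type cap, stood at 27.2, 10.8 and 52.5 CPM in water and 1.66, 3.71 and 0.586 CPM in progressing tumours (log2 fold change -3.93 with an SE of 0.76, adjusted p = 0.0113), with no overlap. Ifit3, of the same gene family, had 30.2, 26.4 and 72.5 CPM and 2.71, 11.8 and 1.61 CPM (log2 fold change -3.01 with an SE of 0.78, adjusted p = 0.0337). Oasl2, a 2'-5'-oligoadenylate synthetase-like protein, went from 50.9, 29.2 and 128 CPM to 5.23, 5.91 and 2.34 CPM (log2 fold change -3.95 with an SE of 0.62, adjusted p = 0.00512). Oas1a and Oas3 encode synthetases whose product activates RNase L. Oas1a fell by 4.16, from 49.7, 18.2 and 72.2 CPM to 2.09, 4.47 and 1.32 CPM, and Oas3 by 3.92, from 41.6, 17.5 and 49.6 CPM to 0.738, 3.46 and 3.004 CPM. Ifit2, Oas2 and Oasl1 did not pass, with log2 fold changes of -1.48, -2.34 and -1.83. Oas2 had 54.7, 2.90 and 36.4 CPM in water, where water 2 was far below the others, and 1.11, 5.48 and 11.9 CPM in progressing tumours. Eif2ak2, which encodes PKR, the kinase that halts translation on double-stranded RNA, was the exception in size: 91.6, 28.4 and 67.6 CPM in water and 49.5, 32.1 and 51.2 CPM in progressing tumours overlapped (log2 fold change -0.50 with an SE of 0.43, adjusted p = 0.485). Ifit3 and Oas1a have close relatives beside them in the genome (Ifit3b and the Oas1 cluster), and reads shared with these could be counted under either name.

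Among membrane, nucleotide and Mx effectors only Cmpk2, a mitochondrial nucleotide kinase, fell (by 2.50), from 18.6, 12.0 and 19.2 CPM to 3.44, 3.29 and 2.05 CPM. Mx1, a dynamin-like GTPase that traps viral ribonucleoproteins, had 31.5, 6.48 and 38.2 CPM in water and 18.2, 6.75 and 2.27 CPM in progressing tumours (log2 fold change -1.48 with an SE of 0.82, adjusted p = 0.261), with wide scatter in both groups. Rsad2 (viperin, which makes a chain-terminating nucleotide) had 16.5, 6.18 and 21.8 CPM in water and 2.71, 12.7 and 2.34 CPM in progressing tumours, and Bst2, which tethers budding virions, had 87.6, 133 and 102 CPM and 53.6, 91.8 and 38.2 CPM; both overlapped and did not pass. Mx2 had 8.62, 2.14 and 11.01 CPM in water and 26.1, 8.94 and 8.28 CPM in progressing tumours, the highest log2 fold change of the list (0.99), also without passing.

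Of the interferon-induced GTPases, Gbp2 and Irgm1 fell and 3 of 5 did not pass. Gbp2, a guanylate-binding protein, stood at 59.5, 115 and 52.0 CPM in water and 14.3, 5.23 and 10.9 CPM in progressing tumours (log2 fold change -2.89 with an SE of 0.49, adjusted p = 0.00658). Irgm1, a regulator of the immunity-related GTPases, fell by 2.21, from 118, 88.2 and 132 CPM to 33.6, 21.9 and 17.4 CPM. Gbp3 had 40.4, 141 and 41.6 CPM in water and 11.7, 42.9 and 34.8 CPM in progressing tumours, with progressing 2 above 2 of the 3 water libraries, and Gbp5 had 36.4, 29.6 and 27.1 CPM and 3.69, 17.0 and 18.5 CPM. Igtp, also called Irgm3, had 72.9, 75.2 and 111 CPM in water and 35.5, 50.3 and 73.2 CPM in progressing tumours (log2 fold change -0.70 with an SE of 0.34, adjusted p = 0.198); it shares its locus with Irgm2 on the same strand.

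All 5 remaining members fell. Xaf1, a pro-apoptotic antagonist of XIAP, stood at 46.3, 22.4 and 58.4 CPM in water and 5.41, 5.91 and 2.49 CPM in progressing tumours (log2 fold change -3.20 with an SE of 0.53, adjusted p = 0.00616). Ifi44 fell by 3.77, from 16.7, 8.31 and 27.0 CPM to 0.861, 2.53 and 0.440 CPM, the lowest mean of any member in progressing tumours. Rtp4, a chaperone of membrane receptors, fell by 3.15, from 46.0, 17.6 and 66.7 CPM to 5.53, 6.83 and 2.34 CPM. Ifi35 fell by 2.73, from 61.6, 105 and 81.8 CPM to 21.7, 10.5 and 4.98 CPM, and Parp14, a mono-ADP-ribosyltransferase, by 2.11, from 143, 55.7 and 129.9 CPM to 40.2, 18.8 and 17.2 CPM. For these 4 the groups did not overlap.

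Of the 19 calls, 14 held whichever W/W library of the 2 groups was left out. Irf7, Isg15 and Ifit3 did not pass without water 1, water 3, progressing 1 or progressing 3, with adjusted p-values of 0.0628 to 0.0936, 0.0653 to 0.121 and 0.0501 to 0.0949 in that order, and did not pass when regressing libraries were left out of the fit. Cmpk2 did not pass without progressing 3 (adjusted p = 0.0724), nor Parp14 without progressing 2 (0.0541) or progressing 3 (0.0658). Single libraries moved the fold by over 1.5 times in 6 members: without progressing 2, the log2 fold change was -4.36 for Irf7, -4.65 for Ifit1, -4.23 for Ifit3 and -4.64 for Ifi44. Without water 3 it was -3.27 for Ifit1, -2.41 for Ifit3 and -3.16 for Oasl2, and without progressing 1 it was -3.41 for Ifi35.

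**Figure D2:**
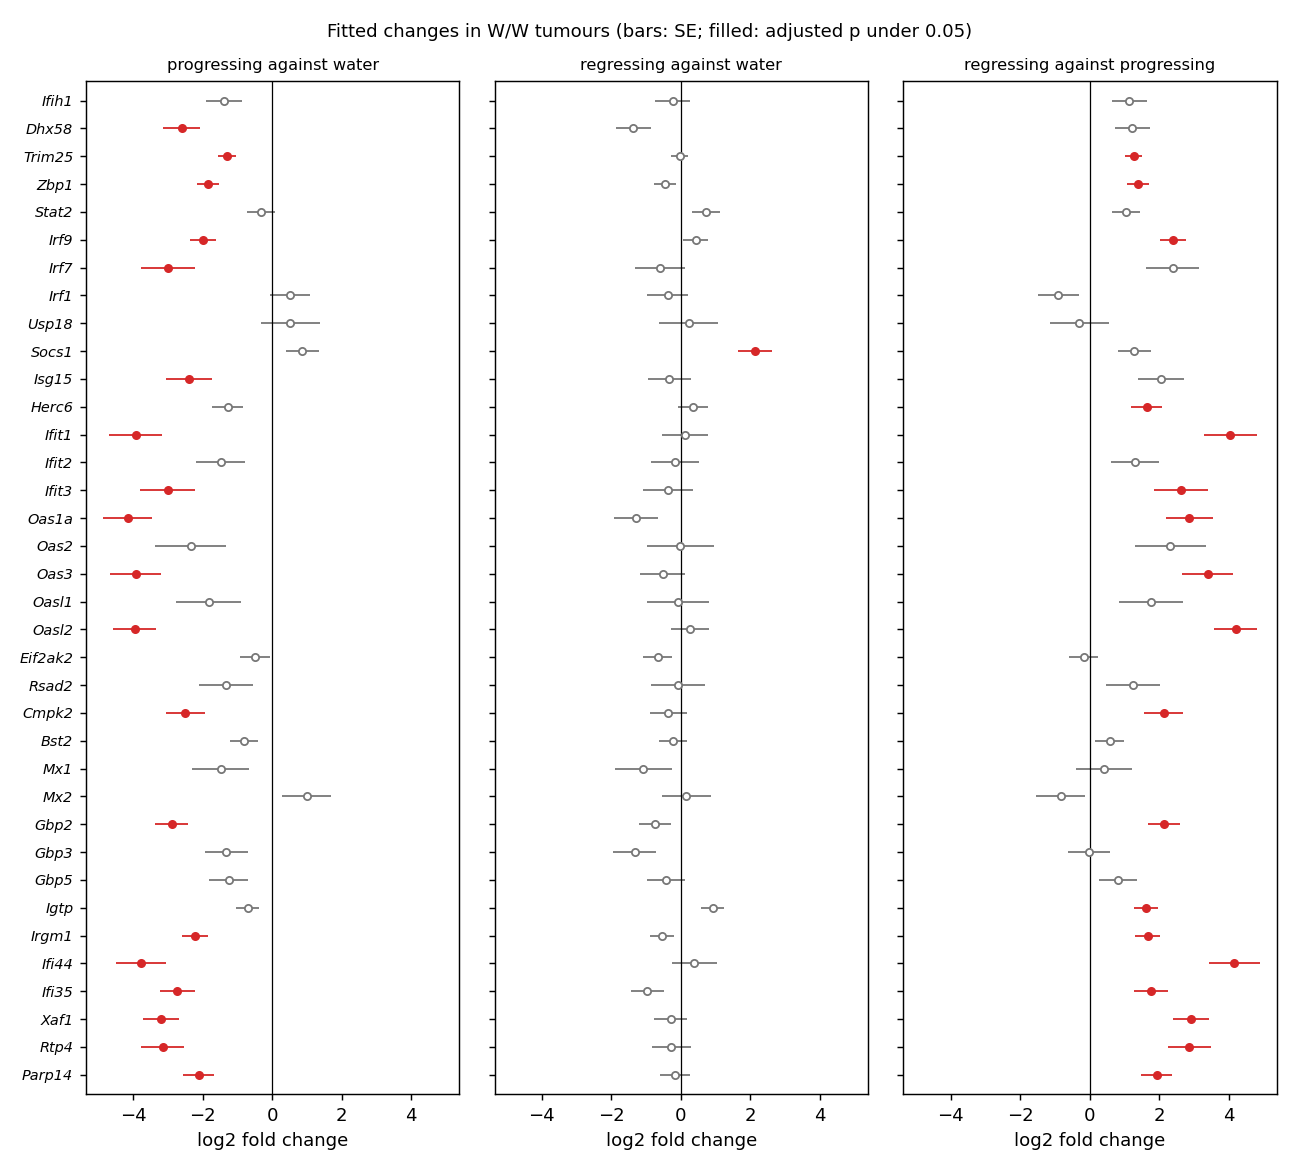
Fitted log2 fold change of each member in the 3 W/W comparisons; bars are 1 standard error, and filled red points passed at an adjusted p-value under 0.05. The left panel holds 19 filled points, all below 0, the middle panel 1 (Socs1), and the right panel 18, all above 0.

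The steps before these genes were read from companion lists of the pathway. Interferon gamma was the one ligand with enough counts to be tested, and its counts came only from water and regressing libraries. Its gene, Ifng, was read 11, 40 and 26 times in water libraries and never in the 3 progressing libraries. That is at least 8.15-fold lower against a floor of 3 counts per library (adjusted p = 0.0183). Regressing libraries held 10, 1 and 12 counts. Tests of Ifng were not repeated with single libraries left out. Ifnb1, the gene of interferon beta, gave 0, 0 and 1 counts in water, 6, 3 and 7 in progressing and 0, 1 and 2 in regressing libraries, too few to be tested. Of 6 receptor genes only Ifnlr1, of the interferon lambda receptor, fell (by 4.04). Ifnar1 stood at 74.8, 56.6 and 68.6 CPM in water and 73.1, 45.3 and 94.9 CPM in progressing tumours, and Ifngr1 at 90.8, 553 and 133 CPM and 188, 407 and 343 CPM; neither passed in any comparison. Of 4 JAK and STAT genes beyond the members, the kinase gene Tyk2 fell (-1.19). Jak1 did not pass, at -0.25. Of 14 sensors and adaptors beyond the members, 7 fell (Ddx58, Irf5, Irf8, Myd88, Sting1, Tlr3 and Tlr9), as did 2 of 6 further brakes and modifiers (Ptpn6 and Ube2l6), and none rose. Of 39 further interferon-induced genes tested, 20 fell and none rose, with a median of -1.65; the chemokine Cxcl9 (-5.17) and the GTPases Tgtp1 (-5.87) and Iigp1 (-3.81) were among them.

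Markers of several cell types were also lower in progressing than in water tumours. Dendritic cell markers summed to 58.3 to 131 CPM in water, 5.90 to 20.9 CPM in progressing and 41.9 to 91.6 CPM in regressing tumours, and 4 of 6 fell in progressing tumours. B-cell markers summed to 265 to 3216 CPM, 3.20 to 33.5 CPM and 111 to 201 CPM, with 6 of 6 lower. Regressing sums lay below every water library, and Blk gave 202 CPM of the sum in water 3 and 111 CPM in regressing 1. Cytotoxic and NK markers summed to 77.3 to 1244 CPM, 23.9 to 143 CPM and 77.6 to 97.3 CPM, with 6 of 8 tested lower. Ncr1 was at 0 in all progressing libraries. The cytotoxic and NK sum in progressing 2 lay above all regressing libraries, with 141 CPM from Gzma, which did not pass. Thymic epithelium markers summed to 155 to 907 CPM, 41.0 to 102 CPM and 701 to 797 CPM (4 of 7 lower). Ccl25 gave 353, 358 and 325 CPM of the regressing sums, and Krt5 gave 435 CPM of the sum in water 3. Aire stood at 46.9, 1.75 and 138 CPM in water and 19.1, 9.30 and 17.2 CPM in regressing libraries. Markers of plasmacytoid dendritic cells, which make type I interferon, summed to 205 to 549 CPM, 105 to 151 CPM and 541 to 961 CPM (2 of 5 lower). This last sum rested on single genes: Ccr9 gave 833, 829 and 385 CPM of it in regressing libraries, and Tcf4 115, 59.8 and 53.2 CPM in progressing libraries. Siglech stood at 2.0, 8.62 and 1.60 CPM in water, 0.0615, 0.759 and 1.17 CPM in progressing and 9.45, 3.95 and 4.61 CPM in regressing libraries. Spib and Pacsin1 were lower in regressing than in water libraries, without overlap. Macrophage markers summed to 1745 to 2535 CPM, 314 to 1457 CPM and 541 to 978 CPM, with 1 of 9 lower. In the other direction, 5 of 8 double-positive thymocyte markers were higher in progressing tumours. Mitochondrial genes took 2.55%, 3.79% and 2.75% of counts in water and 4.70%, 8.83% and 4.86% in progressing libraries, without overlap. The part of these cells, or of the mitochondrial share, in the fall of the interferon response genes was not tested.

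**Figure D3:**
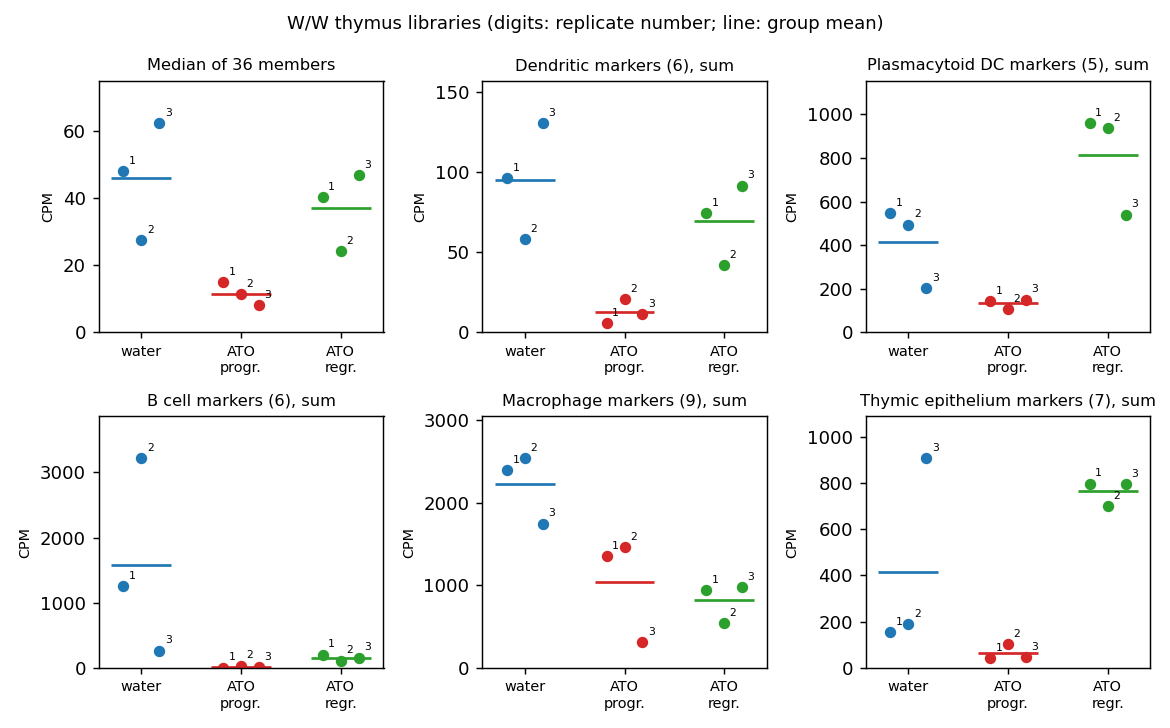
Median level of the 36 members and summed levels of 5 marker lists in each W/W library, in CPM on linear axes from 0; digits are replicate numbers and lines are group means. Progressing libraries are below water and regressing libraries in the member median and in the dendritic, plasmacytoid dendritic, B-cell and thymic epithelium sums, while macrophage sums of progressing and regressing libraries overlap. The plasmacytoid dendritic sum of regressing libraries is mostly Ccr9.

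Regressing tumours were compared with water tumours next. Few members differed here: 1 of 36 passed, with a median log2 fold change of -0.26 (-0.11 over all genes), where 7.7% of all genes passed. The 1 call was Socs1, the JAK inhibitor, which rose from 11.3, 8.39 and 18.4 CPM in water to 64.8, 65.9 and 38.0 CPM in regressing tumours (log2 fold change 2.14 with an SE of 0.49, adjusted p = 0.0298). Every regressing library was above every water library, but without water 1, water 2, regressing 1 or regressing 2 the adjusted p-value was 0.0636, 0.0731, 0.122 and 0.133. At an unadjusted p-value under 0.05, Dhx58 was lower (-1.37, adjusted p = 0.111) and Igtp higher (0.92, adjusted p = 0.108), neither passing after adjustment. Igtp stood at 193, 171 and 126 CPM in regressing tumours, above all 3 water libraries, and Stat2 at 123, 102 and 99.6 CPM was likewise above all of them. Libraries did not overlap in 3 members as lower (Dhx58, Irf1 and Ifi35) and in 3 as higher, against 20.8% and 19.3% of all genes. A result that misses the threshold does not show equal levels: the standard errors of single members reached 0.97 on the log2 scale. Double-positive thymocyte markers were higher in regressing tumours in 6 of 8 cases, adipocyte markers in 3 of 6 and thymic epithelium in 2 of 7, and fibroblast markers were lower in 3 of 5. Regressing 3 stood apart, with adipocyte markers summing to 4792 CPM (139 and 564 CPM in regressing 1 and 2) and 8.48% mitochondrial counts (2.08% and 2.96%). Without it, 1 member, Socs1, passed here as well. The part of these markers was not tested.

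Progressing and regressing tumours both came from ATO-treated mice. Of 36 members, 18 were higher in regressing tumours and none was called lower, 5 had negative values, and 2 of the 18 calls held whichever library was left out. The members had a median log2 fold change of 1.65, where 12.6% of all genes passed (6.45% as higher and 6.18% as lower). In 22 members every regressing library lay above every progressing library, as in 21.4% of all genes. This comparison uses the same progressing libraries as the comparison with water, so they are not independent; 16 members passed in both, and Herc6 and Igtp passed here alone. The largest difference was in Oasl2, with 82.9, 51.5 and 114 CPM in regressing tumours against 5.23, 5.91 and 2.34 CPM in progressing ones (log2 fold change 4.20 with an SE of 0.63, adjusted p = 0.00924). Ifit1 had 36.5, 19.9 and 41.8 CPM in regressing tumours (log2 fold change 4.05 with an SE of 0.77, adjusted p = 0.0158), Ifi44 had 26.5, 14.9 and 27.0 CPM (log2 fold change 4.16), and both were far above any progressing library. Irf9 had 106, 72.0 and 91.4 CPM in regressing tumours (log2 fold change 2.41 with an SE of 0.38, adjusted p = 0.00992).

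Among the other named members of this comparison, Xaf1 stood at 40.5, 20.1 and 43.6 CPM in regressing tumours (log2 fold change 2.91 with an SE of 0.52, adjusted p = 0.0132), Zbp1 at 46.9, 30.3 and 57.2 CPM (log2 fold change 1.40 with an SE of 0.32, adjusted p = 0.0255) and Gbp2 at 42.9, 31.3 and 61.0 CPM (log2 fold change 2.14 with an SE of 0.47, adjusted p = 0.0218). Each group of 3 was above the progressing libraries. Igtp passed as well (log2 fold change 1.62 with an SE of 0.34, adjusted p = 0.0199), as did Ifit3 (log2 fold change 2.64 with an SE of 0.77, adjusted p = 0.0490), for which regressing tumours had 30.2, 16.1 and 53.8 CPM. Trim25, Oas1a, Oas3, Cmpk2, Irgm1, Ifi35, Rtp4, Parp14 and Herc6 also passed, with log2 fold changes from 1.27 (Trim25) to 3.40 (Oas3). Isg15, at 21.6, 11.9 and 36.1 CPM (log2 fold change 2.05 with an SE of 0.65, adjusted p = 0.0612), and Irf7, at 79.0, 28.1 and 93.3 CPM (log2 fold change 2.39 with an SE of 0.75, adjusted p = 0.0608), missed the threshold narrowly. Stat2 (log2 fold change 1.05 with an SE of 0.40, adjusted p = 0.106) and Ifih1 at 20.6, 14.0 and 31.3 CPM (log2 fold change 1.15 with an SE of 0.51, adjusted p = 0.148) also missed it.

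Irf1, the brakes, Eif2ak2 and Mx1 did not pass here either. Irf1, at 114, 93.4 and 108 CPM in regressing tumours (log2 fold change -0.90 with an SE of 0.58, adjusted p = 0.313), changed sign without progressing 2, to 0.20. Usp18, at 51.6, 28.9 and 61.2 CPM (log2 fold change -0.30 with an SE of 0.84, adjusted p = 0.836), changed sign without progressing 1, to 1.44. Eif2ak2 stood at 39.7, 28.5 and 49.9 CPM (log2 fold change -0.17 with an SE of 0.43, adjusted p = 0.811), Mx1 at 14.2, 5.43 and 16.6 CPM (log2 fold change 0.41 with an SE of 0.80, adjusted p = 0.758). Socs1 was above progressing in each regressing library (log2 fold change 1.28 with an SE of 0.48, adjusted p = 0.0968). Of the companion genes, Ifng (adjusted p = 0.0466) was higher in regressing tumours, with 1 count in regressing 2 and none in progressing libraries. Ifnlr1, 5 of 14 sensors and adaptors and 15 of 39 further interferon-induced genes were also higher, and none was lower. Dendritic markers were higher in 5 of 6 cases, thymic epithelium in 5 of 7 and cytotoxic and NK markers in 4 of 8 tested, and fibroblast markers were lower in 3 of 5. Their part in the difference was not tested.

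This comparison leaned on single libraries more than the first. The number of members passing was 2 without regressing 1 (Irf9 and Oasl2), 9 without regressing 2, 7 without regressing 3, 6 without progressing 3, 14 without progressing 1 and 15 without progressing 2. Irf9 and Oasl2 passed in all 6 of these fits. The median over members stayed between 1.43 and 1.83. Without progressing 2, the log2 fold change was 4.87 for Ifit1, 3.97 for Ifit3, 3.52 for Oas1a and 5.13 for Ifi44, and without progressing 1 it was 2.45 for Ifi35, each a fold over 1.5 times that from all libraries.

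The grafts let ATO be compared with PBS in tumours growing in C57 mice. Few members changed there: 2 of the 33 members that could be tested passed, where 13.9% of all 15468 genes did (6.57% as lower and 7.37% as higher), and the median log2 fold change was 0.18, against 0.04 over all genes. Median member levels were 8.40 and 7.41 CPM after PBS and 7.69 and 7.25 CPM after ATO. Stat2 rose (log2 fold change 0.89 with an SE of 0.24, adjusted p = 0.0338), from 31.6 and 35.8 CPM to 73.3 and 51.3 CPM, and Bst2 fell (log2 fold change -0.95 with an SE of 0.22, adjusted p = 0.0183), from 85.5 and 70.1 CPM to 41.7 and 38.6 CPM. In both genes the 2 groups did not overlap. Stat2 did not pass without PBS 1 (adjusted p = 0.164), PBS 2 (0.0617) or ATO 1 (0.182), and Bst2 did not pass without PBS 1 (0.107). The number of members passing was 0 without PBS 1 and 4 without ATO 1.

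Levels of most effectors in the grafts were low. Oasl1, Mx1 and Mx2 had too few counts to be tested, at 0.134 to 1.25 CPM for Mx2, and Ifit1 stood at 0.364 and 1.54 CPM after PBS and 1.69 and 0.525 CPM after ATO. Isg15 had 4.58 and 6.57 CPM and 5.52 and 6.63 CPM, Ifit3 1.60 and 1.34 CPM and 1.77 and 1.31 CPM, Oasl2 2.25 and 1.61 CPM and 2.80 and 3.15 CPM, and Xaf1 3.42 and 1.94 CPM and 3.90 and 2.30 CPM. Of these, Oasl2 alone did not overlap between groups. Zbp1 stood at 16.2 and 14.1 CPM after PBS and 18.2 and 16.9 CPM after ATO, Ifih1 at 7.42 and 10.1 CPM and 9.64 and 8.14 CPM, Irf7 at 4.73 and 4.29 CPM and 4.64 and 3.21 CPM, and Irf1 at 70.8 and 71.5 CPM and 87.1 and 83.2 CPM. The brakes Usp18 (26.5 and 28.2 CPM, then 40.8 and 18.8 CPM) and Socs1 (31.1 and 21.5 CPM, then 20.2 and 16.5 CPM) did not pass. The GTPases Gbp2 (9.53 and 7.31 CPM, then 7.80 and 9.05 CPM) and Igtp (44.3 and 32.7 CPM, then 35.5 and 37.3 CPM) overlapped between groups.

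A further 3 members had an unadjusted p-value under 0.05 and did not pass after adjustment, all with higher levels after ATO. They were Irf9 (0.65, adjusted p = 0.138), Eif2ak2 (0.85, adjusted p = 0.0915) and Parp14 (0.99, adjusted p = 0.0596). Eif2ak2 had 12.8 and 19.5 CPM after PBS and 23.2 and 34.8 CPM after ATO, and Parp14 9.96 and 17.0 CPM and 25.4 and 27.95 CPM, without overlap. ATO libraries lay above PBS libraries in 12 of the 33 members tested and below in 4, as in 31.6% and 30.1% of all genes. Of 38 further interferon-induced genes tested, Samd9l (2.23), Sp100, Pml and Ifi203 rose and the immunoproteasome gene Psmb8 fell (-0.82). Over all genes, 7.37% passed as higher and 6.57% as lower. The 4 rises and 1 fall are thus not read as a response of these genes. No receptor, JAK, STAT, sensor or brake of the companion lists passed, and no ligand could be tested. Macrophage markers summed to 688 to 913 CPM after PBS and 349 to 404 CPM after ATO (4 of 9 lower). Fibroblast markers summed to 210.2 to 464 CPM and 598 to 1618 CPM (4 of 5 higher). T-cell markers summed to 6019 to 7335 CPM and 3662 to 4742 CPM, with Cd3d lower among 8 tested. Cytotoxic and NK markers summed to 247 to 469 CPM and 108 to 187 CPM, with Gzma and Nkg7 lower among 4 tested and Ncr1 at 0 in all 4 libraries. Nearly all of these sums was Gzma, at 240 and 463 CPM after PBS and 183 and 105 CPM after ATO. Nkg7 was near the floor, at 1.09 and 1.61 CPM and 0.147 and 0.0656 CPM. Mitochondrial genes took 0.521% and 1.02% of counts after PBS and 5.98% and 4.03% after ATO, and the part of any of these in the results was not tested.

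**Figure D4:**
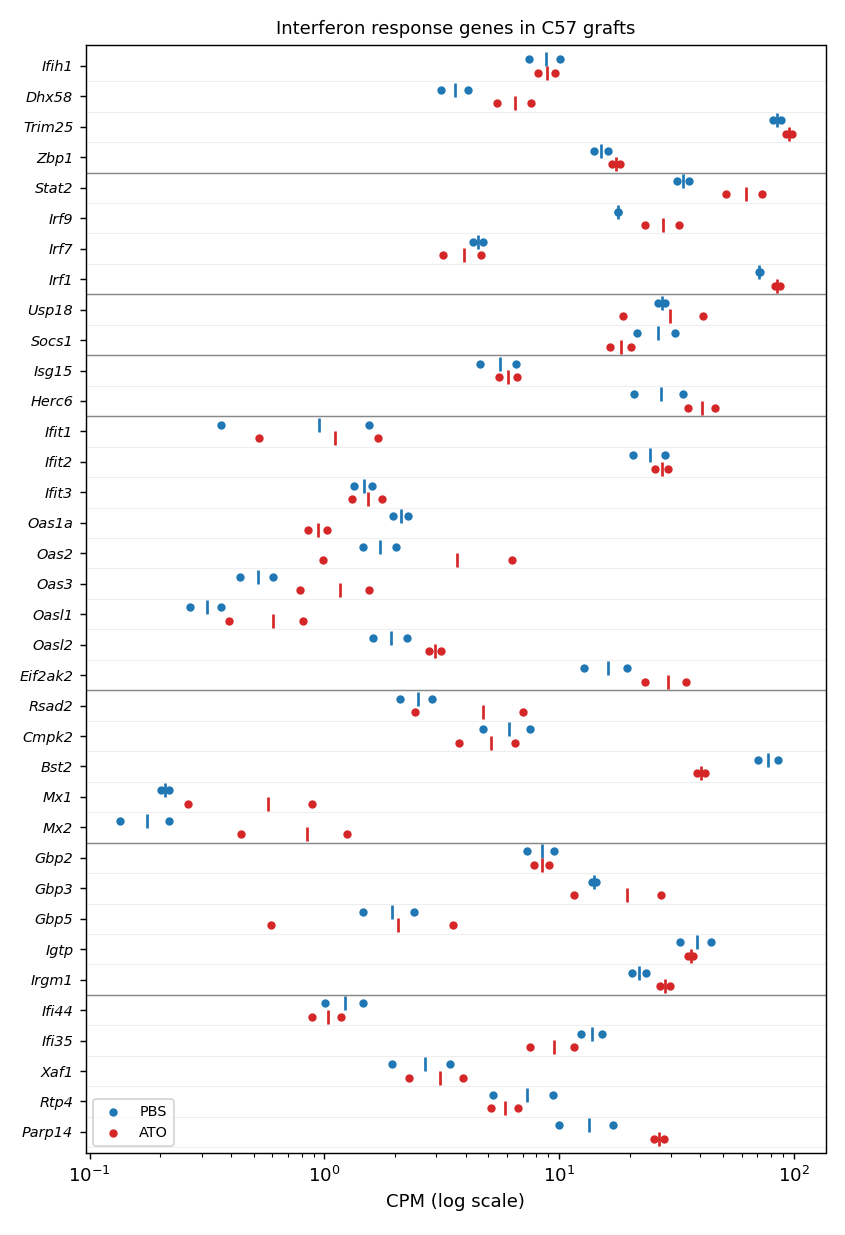
Level of each member in the 4 graft libraries, in CPM on a log axis; dots are libraries and short bars are group means. Of the 33 members tested, ATO libraries lie above both PBS libraries in 12 and below both in 4; Stat2 and Bst2 are the 2 that passed.

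In U937 cells, 1 ATO library was set against 1 PBS library, so no test was possible, and ratios carry exact 95% intervals that cover counting error only. Part of the interferon response genes were higher in the ATO library: of the 27 members with a mean of at least 1 CPM, 13 were at least 2-fold higher and none was 2-fold lower on the scale of log2(CPM + 1). Over all 13722 genes, 15.3% were at least 2-fold higher and 8.53% lower. GBP2, GBP3 and GBP5 are under 1 CPM after PBS and reached that mean only through the ATO library. With at least 1 CPM asked of both libraries, a limit chosen after seeing the data, 10 of 24 members were at least 2-fold higher, against 11.1% of 12486 genes. The median log2 ratio was 0.89 over the 27, against 0.13 over all genes. Myeloid markers differed between the libraries too: ELANE stood at 120.2 CPM after PBS and 19.7 CPM after ATO, SPI1 at 151 and 76.0 CPM, CSF1R at 2.85 and 16.6 CPM and ITGAM at 19.7 and 48.1 CPM. Their part in the difference was not tested. The transcription factors STAT2, IRF9 and IRF7 were among the 13. STAT2 went from 62.7 to 286 CPM, a ratio of 4.57 (4.28 to 4.88), IRF9 had a ratio of 3.90 (2.97 to 5.18) and IRF7 a ratio of 3.52 (2.74 to 4.55).

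Among the RNA effectors, IFIT2 went from 1.34 to 12.0 CPM, a ratio of 8.96 (5.85 to 14.3), OAS1 from 3.13 to 24.9 CPM, a ratio of 7.93 (5.99 to 10.7) and IFIT1 from 1.79 to 9.60 CPM, a ratio of 5.36 (3.65 to 8.11), while IFIT3 had a ratio of 3.12 (2.49 to 3.92). Human IFIT genes overlap LIPA, which could share reads with them. The GTPases GBP2, GBP3 and GBP5 had ratios of 8.42 (2.98 to 32.8), 5.82 (3.26 to 11.2) and 3.71 (1.91 to 7.76), resting on 4, 14 and 12 counts in the PBS library. HERC6 had 4.31 (3.30 to 5.70), IFI35 3.36 (2.25 to 5.13) and PARP14 3.003 (2.77 to 3.26). IRF1 (1.92), USP18 (1.96), SOCS1 (1.92), MX1 (1.94) and OAS3 (1.895) were below 2-fold with intervals above 1, and EIF2AK2 had 1.36 (1.29 to 1.44). SOCS1, with 39 and 69 counts, overlaps RMI2 on the opposite strand, which had up to 868 counts and could share reads with it.

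The list did not move as one. ISG15 had 7.67 and 6.75 CPM after PBS and ATO, a ratio of 0.880 (0.679 to 1.14), beside IFIT genes that were several-fold higher. BST2 (71.7 and 73.8 CPM), CMPK2 (17.0 and 17.4 CPM) and IFIH1 (21.7 and 24.0 CPM) had intervals that include 1. Intervals lay below 1 for RSAD2, with a ratio of 0.552 (0.401 to 0.753), MX2, with 0.802 (0.758 to 0.848), and TRIM25, with 0.934 (0.885 to 0.985). RSAD2 and CMPK2 overlap on opposite strands, so their reads may be mixed. ZBP1 had 0 counts in both libraries, and OAS2, XAF1, RTP4 and IFI44 had 0 counts after PBS and 3, 5, 3 and 14 after ATO. Of the companion genes, IFNB1 had 0 and 6 counts and IFNG 0 in both libraries. JAK1 stood at 199 and 313 CPM, IFNAR1 at 124 and 174 CPM and IFNGR1 at 69.5 and 149 CPM. Of 21 further interferon-induced genes that could be compared, 5 were at least 2-fold higher (SAMD9L, SLFN5, LGALS3BP, ISG20 and CXCL11). Another 4 were at least 2-fold lower (IFITM2, TRIM14, PSMB8 and CXCL10). Over all genes, 15.3% were at least 2-fold higher and 8.53% lower. LGALS3BP and CXCL11 were under 1 CPM after PBS and reached a mean of 1 CPM only through the ATO library. CXCL10 was under 1 CPM after ATO and reached it only through the PBS library.

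**Figure D5:**
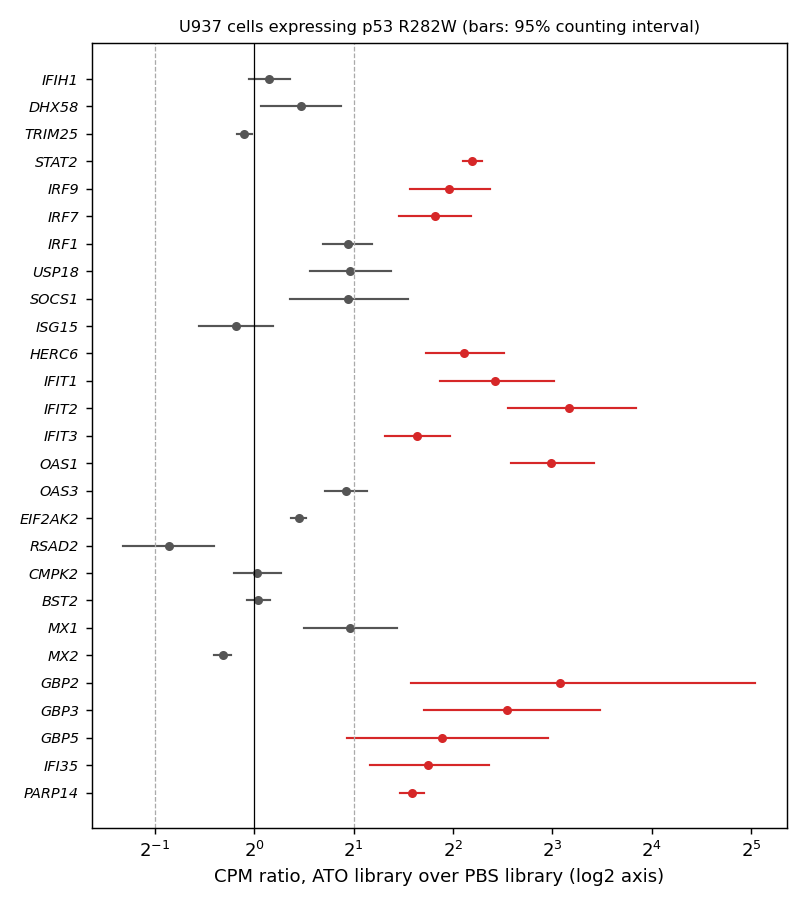
Ratio of CPM in the ATO library over the PBS library for the 27 members that could be compared in U937 cells, on a log2 axis; bars are exact 95% counting intervals, dashed lines mark 2-fold, and red marks the 13 members at least 2-fold higher. The intervals of RSAD2, MX2 and TRIM25 lie below 1.

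Single members are set side by side across the systems. STAT2, the type I transducer, had log2 fold changes of -0.32 in progressing tumours against water (not passed) and 0.89 in grafts (passed), and a 4.57-fold ratio in U937 cells. Ifit1 fell by 3.93 in progressing tumours, stood at 0.364 to 1.69 CPM in grafts, and was 5.36-fold higher in the U937 ATO library. Bst2 fell in grafts (-0.95), had -0.81 in progressing tumours without passing, and a ratio of 1.03 in U937 cells. In 8 members (Dhx58, Trim25, Zbp1, Irf9, Oas3, Oasl2, Irgm1 and Parp14) every progressing library lay below water while every graft ATO library lay above PBS. Of the genes tested in both tables, 3.37% did so, and none of the 8 passed in grafts. Taken alone, the graft part held 12 of the 33 members tested, near the 31.6% of all genes. The progressing part held 21 of 36 members, against 14.7% of all genes. The 8 are thus not read as a response of the members in grafts. No member passed in both the grafts and the comparison of progressing tumours with water. The systems were normalized separately and differ in host, tissue and treatment, and differences between them were not tested.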

How the data were processed

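RNA sequencing was done on 15 libraries (9 W/W thymus, 4 graft, 2 U937). Per the labels' protocols, RNA came from TRIzol extraction and a SMARTer kit for mRNA made the libraries. Per the submitters' processing notes, FastQC 0.10.1, cutadapt 1.9.1 and HISAT2 2.0.1 were used; the counting tool, its strand setting and the gene annotation used are not given in the sources used here. The authors deposited raw counts per gene, without normalization, in 1 table per system. The deposited FPKM values, which per the file headers stand beside the counts, were used only to compare totals: those of the W/W table exceed the summed counts by 0.106% to 2.33%, so some counted features were not analysed here. Exonic gene sizes, per the file headers, gave CPM per kilobase.

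Tests on the counts used edgeR 4.0.16 under R 4.3.3 (filterByExpr, TMM, quasi-likelihood test, Benjamini-Hochberg over all genes, adjusted p-value under 0.05), with the 9 W/W libraries in 1 fit and the 4 grafts in another. Each standard error is the log2 fold change divided by the square root of its F value. The counting floor is 3 counts per library. U937 ratios used CPM of total counts, a pseudocount of 1 for log2 ratios, a mean of at least 1 CPM and a 2-fold limit, and exact binomial 95% intervals, which cover counting error only. The scripts were tested on simulated counts.

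Alternatives were DESeq2 1.42.0, RLE size factors, no low-count filter, only the compared groups in the fit, a replicate block, and each library left out; fits without water 2 and progressing 2, a crossed block in grafts and a stricter U937 filter were chosen after seeing the data. The members, the companion and marker lists and the roles were chosen with earlier results of these data known. One gene of the companion lists is not reported here. Per-library values are given for 16 members spread over the roles (Ifih1, Zbp1, Stat2, Irf7, Irf1, Usp18, Socs1, Isg15, Ifit1, Ifit3, Oasl2, Eif2ak2, Mx1, Gbp2, Igtp and Xaf1) and for members that passed or were exceptions. Their full statistics are given in the 2 comparisons with progressing tumours; in the others only for members at an unadjusted p-value under 0.05, a limit set after values were seen.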

Additional observations from a re-analysis of the deposited data

Results flagged for a closer look

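In 8 members the progressing libraries all lay below the water libraries while the graft ATO libraries all lay above the graft PBS libraries, as in 3.37% of the 14674 genes tested in both tables. Their log2 fold changes in grafts were 0.85 for Dhx58, 0.18 for Trim25, 0.21 for Zbp1, 0.65 for Irf9, 1.14 for Oas3, 0.62 for Oasl2, 0.37 for Irgm1 and 0.99 for Parp14. None of the 8 passed in grafts, and the difference between the systems was not tested. The graft part alone held 12 of the 33 members tested, near the 31.6% of all genes. The progressing part held 21 of 36 members, against 14.7% of all genes. The 8 are thus not read as a response of the members in grafts.

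In the W/W tumours, 18 members differed between regressing and progressing tumours under ATO (edgeR, adjusted p-value under 0.05), which is also the test of the difference between their 2 changes against water.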

How the results depend on the processing

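The count of members lower in progressing tumours was 19 in the reported fit and 14 to 22 over all alternatives: 21 with DESeq2, 21 with no filter, 19 with RLE size factors, 16 with the compared groups only and 22 without water 2 and progressing 2. None was higher in any of them. Against water, regressing tumours had 0 to 1 members passing when 1 library was left out. Regressing against progressing gave 2 to 15 members when 1 library was left out, and 18 to 22 with DESeq2, RLE size factors, no filter, compared groups only or 7 libraries.

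No pairing by replicate number was seen: same-numbered W/W libraries had correlations of deviations from -0.12 to 0.15, and others from -0.17 to 0.17. With 3 libraries a group this cannot exclude a pairing. With the replicate block, 16 members passed for progressing against water (Irf7, Isg15 and Ifit3 had adjusted p-values of 0.0782, 0.103 and 0.0716), 1 for regressing against water, 14 for regressing against progressing and 1 in grafts, where Stat2 had an adjusted p-value of 0.0587. In grafts the same-number correlation was -0.12, and the crossed block gave 3 members; leaving out 1 graft library, with the lone library assumed to vary like the other group, gave 0 to 4.

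Signs changed in members that had not passed. For progressing against water, values over fits that left out 1 library were -0.64 to 0.066 for Stat2, -1.21 to 1.16 for Usp18 and -0.48 to 0.99 for Irf1, which was -0.61 without water 2 and progressing 2. For regressing against progressing they were -0.80 to 1.44 for Usp18 (0.014 with the block), -1.37 to 0.20 for Irf1 (0.24 with 7 libraries), -0.054 to 1.42 for Mx1 and -0.33 to 0.026 for Eif2ak2. The cause was not tested. In U937 cells 13 members were at least 2-fold higher also with a pseudocount of 0.1 or no filter, 10 with at least 1 CPM in both libraries, and 11 with TMM scaling, which moved the median of all genes from 0.13 to -0.07. Low counts limit what can be said of the ligands and of Oasl1, Mx1 and Mx2 in grafts.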
